A study of Drosophila melanogaster with 8 samples.

Results

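3LHet is the scaffold of FlyBase release 5 that holds heterochromatic sequence assigned to the left arm of chromosome 3 but not joined to the assembled arm 3L. It is 2555491 bp long, 1.83% of the assembled sequence without the part named Uextra. All regions enriched for heterochromatin protein 1a (HP1a) that lie on it are described. They number 250, 191, 214 and 196 in the lists of replicates 1 to 4, 851 of 19696 regions over the 4 lists, and 142 of 5697 in the list made for the replicate set, called the combined set here. Membership rests on the sequence name, and the scaffold itself was picked with earlier results of these data known.

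Whole wild-type Drosophila melanogaster embryos of the Oregon-R strain (Oregon-R-modENCODE), 14 to 16 h old by the sample labels, were crosslinked with formaldehyde. HP1a was immunoprecipitated from their chromatin with the antibody wa191, and the DNA was sequenced. The series has 4 ChIP samples and 4 inputs, and each ChIP sample has the input of its own number as control. No treatment, genotype or age was contrasted, so the question is where HP1a was enriched over input along the scaffold and how far the ChIP samples gave the same places. Whole embryos mix all cell types and a called region cannot be assigned to any one of them. Whether the 4 samples are separate embryo collections is not stated, and the spread between them may be technical. The submitters' experiment numbers group the samples into replicates 1 and 2 (1914, 1916) and replicates 3 and 4 (2026, 2027), so the main values are given for every replicate.

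HP1a is a small non-histone chromosomal protein. Its chromodomain binds methylated histone H3 and its chromoshadow domain pairs HP1a molecules and recruits partners, which lets the protein spread along a nucleosome array. In flies it is encoded by a gene of the Su(var) class, found through mutations that relieve the silencing of genes placed next to heterochromatin. Pericentric heterochromatin is rich in satellite repeats and transposon remnants and poor in genes, and several genes that do reside there depend on HP1a for their normal expression. Neither the genes nor the bases of 3LHet are described, since the gene table used here has coordinates of another genome release.

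HP1a-enriched regions covered most of 3LHet in every sample. The covered share, the percentage of bases inside called regions, of replicates 1 to 4 was 68.6%, 79.5%, 73.9% and 76.6%, or 74.6% ± 4.62 on average (SD, n = 4). Replicate 1 was lowest and replicate 2 highest, so the spread within that pair of experiment numbers was wider than the distance between the pairs. The scaffold supplied 8.27%, 8.00%, 9.13% and 9.92% of all covered bases in the 4 lists, against its 1.83% of the sequence. The 1.83% leaves out Uextra, while covered bases were counted over every sequence with regions in a list, so the 2 percentages have unlike bases. A large share was not particular to 3LHet. The heterochromatic scaffold 3RHet (2517507 bp) supplied 7.75% ± 0.681 of the covered bases and the last 2 Mb of arm 3L 5.70% ± 0.662. 3LHet supplied 4.33% ± 0.419 of the regions (SD, n = 4). The combined set covered 86.6% of 3LHet, more than any single replicate list. The read depth of the lists is not known and no interval can be set on the enrichment of a single region. An uncovered base may lie just under the authors' threshold or in sequence to which no read can be placed.

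The regions of 3LHet were broad domains broken by short gaps. The median width of replicates 1 to 4 was 4137, 6271, 5794 and 6055 bp, or 5564 ± 971 bp on average (SD, n = 4), and 8807 bp in the combined set. Replicate 1 had the most regions and the narrowest ones. Regions of at least 10 kb numbered 47, 63, 65 and 67 in replicates 1 to 4 and held 55.7%, 73.3%, 63.9% and 70.5% of the covered bases. Regions under 2 kb numbered 50, 31, 20 and 22. The widest region of a list reached 71519 bp in replicate 1, 83101 bp in replicate 2, 91928 bp in replicate 3 and 98025 bp in replicate 4. Neighbouring regions were separated by a median gap of 1525 ± 156 bp (SD, n = 4), and 39.6% ± 2.25 of the gaps were no longer than 1 kb. Joining regions across such gaps left 154, 113, 125 and 124 blocks in replicates 1 to 4 and 63 in the combined set.

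**Figure D1:**
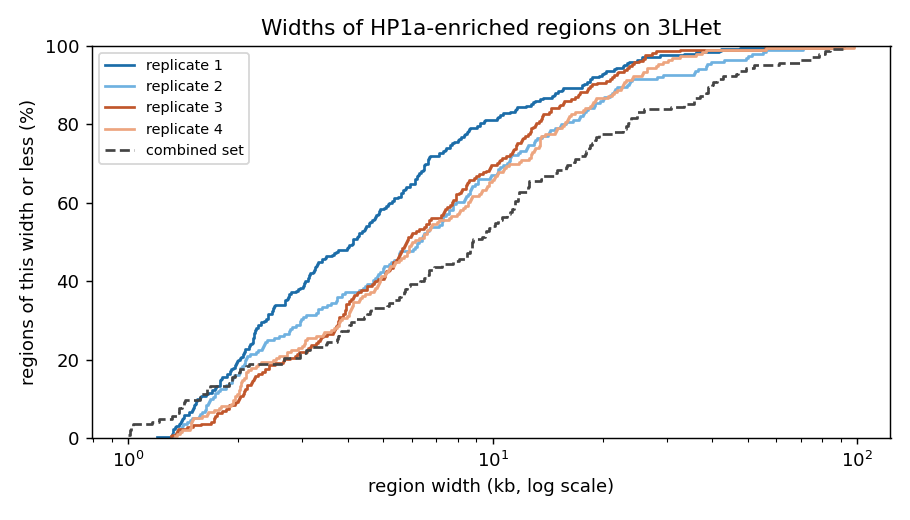
Cumulative percentage of 3LHet regions (y axis) against region width in kb on a log scale (x axis), one line for each replicate list and a dashed line for the combined set. Replicate 1 lies to the left, with a median of 4137 bp, the other replicates run close together with medians of 5794 to 6271 bp, and the combined set lies furthest to the right over most of the range, with a median of 8807 bp.

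These broad domains did not carry the highest scores of the lists. The score is the authors' own value for each region, without a stated unit or scale, and is used only within a list. On 3LHet it ranged from 0.743 to 2.64 in replicate 1, 0.595 to 2.17 in replicate 2, 0.489 to 2.45 in replicate 3 and 0.516 to 2.44 in replicate 4, whereas the highest scores anywhere in those lists were 3.77, 3.63, 4.88 and 4.87. Among the top 100 scores of a list, 1 lay on 3LHet in replicate 1 and 0 in each of the other 3 replicates, while the scaffold held 4.33% of the regions on average. On 3RHet, another heterochromatic scaffold, the number was 0, 0, 3 and 2 in replicates 1 to 4, and it was 0 in every replicate on the scaffold 2LHet and in the last 2 Mb of arm 3L. The median 3LHet region stood at percentile 50.3, 56.1, 69.3 and 68.7 of its own list by score in replicates 1 to 4. In replicate 1 it was thus an average region, and in replicates 3 and 4 it stood clearly above the middle of the list. The other parts shared this pattern. In the same order the percentiles were 55.1, 58.8, 74.4 and 75.2 on 2LHet, above 3LHet in every replicate. They were 45.8, 52.9, 64.5 and 60.5 on 3RHet, and 47.9, 58.1, 63.5 and 64.3 in the last 2 Mb of 3L. Wider regions on 3LHet tended to have higher scores. Across its regions in a list Spearman's rho between width and score was 0.62, 0.78, 0.54 and 0.29 in replicates 1 to 4 over 250, 191, 214 and 196 regions. Regions of a list share a library, and the rho is a description.

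The covered share varied along the scaffold, more alike within the pairs of experiment numbers than across them. Over the 26 windows of 100 kb, the last of them 55.5 kb long, the mean share ranged from 47.4% to 95.5% with a median of 74.9%. The densest window ran from 400001 to 500000 and was covered over 93.6%, 98.9%, 93.4% and 95.9% in replicates 1 to 4. It was followed by the window from 800001 to 900000 with 90.7% ± 1.77 and the window from 2000001 to 2100000 with 89.9% ± 4.39 (SD, n = 4). The emptiest window ran from 2300001 to 2400000, where the shares were 39.4%, 52.3%, 49.0% and 48.8%. Every replicate had its lowest or second-lowest share in this window. The next lowest were the window from 100001 to 200000 with 52.6% ± 5.50 and the last one, from 2500001 to 2555491, with 56.4% ± 15.9 (SD, n = 4).

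**Figure D2:**
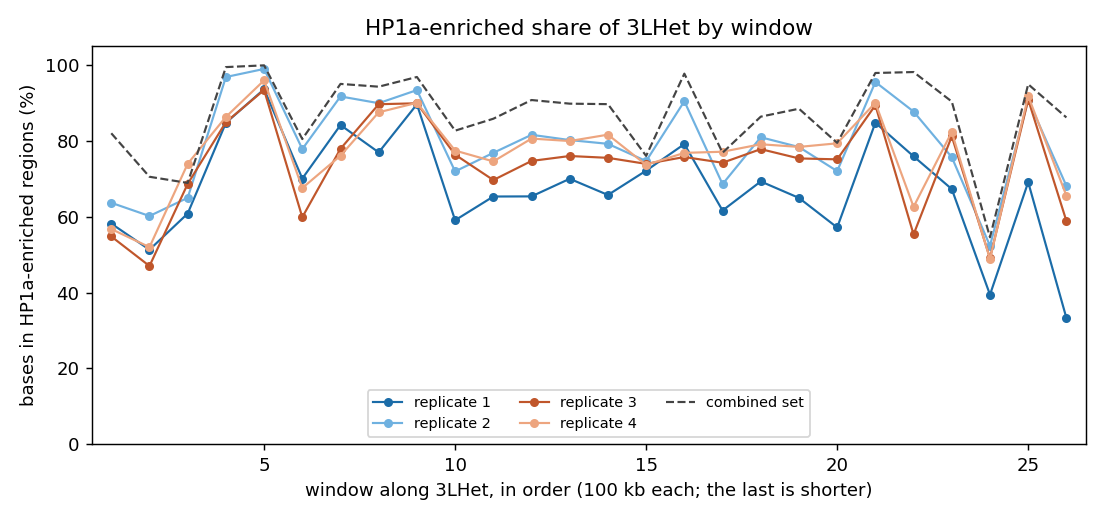
Percentage of bases in HP1a-enriched regions (y axis) in 26 consecutive windows along 3LHet (x axis), one line for each replicate and a dashed line for the combined set. All lines peak at window 5, with shares of 93.4% to 98.9% in the replicates, and dip at window 24, with shares of 39.4% to 52.3%. Replicate 1 is lowest in 19 of the 26 windows and replicate 2 highest in 18.

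The profile was closest between samples of neighbouring experiment numbers. Pearson's r of the window shares was 0.98 between replicates 3 and 4, 0.89 between replicates 1 and 2, and 0.70 to 0.79 in the 4 pairs across them. Spearman's rho was 0.92, 0.90 and 0.57 to 0.79 in the same order, lowest between replicates 1 and 4. Replicates 1 and 2 both lay above replicates 3 and 4 in 5 windows and both below them in 6. These are descriptions over 26 windows of 1 scaffold. The largest difference between the pairs was in the window from 2100001 to 2200000, where replicates 1 and 2 had shares of 75.9% and 87.7% and replicates 3 and 4 had shares of 55.3% and 62.6%. The opposite order held in the window from 1900001 to 2000000, with 57.1% and 72.0% against 75.1% and 79.3%. In the last window, with 33.3% and 68.1% against 58.9% and 65.5%, only the mean of replicates 1 and 2 was the lower one. There replicate 2 stood above both replicates 3 and 4, and replicate 1 alone stood below them. Between its 2 equal parts by length the scaffold showed no difference larger than the spread. The part up to 1277745 was covered over 75.5% ± 3.95 and the part behind it over 73.8% ± 5.50 (SD, n = 4). The ratio of the first part to the second in replicates 1 to 4 was 1.08, 1.02, 0.995 and 0.999 and exceeded 1 in 2 of 4 (exact two-sided sign-flip permutation p = 0.50, Benjamini-Hochberg adjusted p = 0.56 over 10 tests).

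Every sample called the same 59.0% of the scaffold's bases, or 1507 kb. Bases called in 3 of the 4 lists made up 11.7%, in 2 lists 10.5%, in 1 list 6.46% and in no list 12.3%. Among the partial patterns the most frequent was a call in replicates 2, 3 and 4 without replicate 1, over 7.86% of the bases. A call in replicates 1 and 2 alone covered 5.17%, and a call in replicates 3 and 4 alone 3.56%. The 4 patterns with 1 replicate of each pair covered 0.0530% (1 and 3), 0.265% (1 and 4), 0.380% (2 and 3) and 1.12% (2 and 4). The Jaccard index of covered bases, the shared bases divided by the bases in either list, was 0.899 between replicates 3 and 4, and 0.83 between replicates 1 and 2. Across the pairs it was 0.762 (1 and 3), 0.731 (1 and 4), 0.818 (2 and 3) and 0.796 (2 and 4). Replicate 2 thus stood closer to replicate 3 than replicate 1 did.

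The longest blocks called throughout in all 4 lists were one of 41617 bp at 387952 to 429568, one of 25500 bp at 1481277 to 1506776, one of 25442 bp at 1187571 to 1213012, one of 23612 bp at 1608271 to 1631882 and one of 23044 bp at 543267 to 566310. They are the top of 309 such blocks with a median of 3092 bp, 38 of which reached 10 kb. The common part of 3LHet was therefore spread over many blocks: the 5 longest held 9.24% of it.

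The bases in no replicate list lay partly in a few long stretches and otherwise in many shorter ones. They formed 122 stretches with a median of 1032 bp, and the 5 longest held 34.2% of their 315 kb. The longest ran from 2328388 to 2372699 (44312 bp) and lies wholly within the emptiest window. The next were 23194 bp at 1457187 to 1480380, 14310 bp at 203425 to 217734, 13376 bp at 1907938 to 1921313 and 12526 bp at 518776 to 531301. Enriched regions lay on both sides of the longest stretch, in replicate 1 further from its left edge than in the others. On its left the last region ended at 2327757, 2328182 and 2328387 in replicates 2, 3 and 4, and at 2321659 in replicate 1. On its right the next region began at 2373327 and 2372700 in replicates 1 and 2 and at 2375463 and 2375513 in replicates 3 and 4. Whether assembly gaps or repeated sequence fill these stretches was not tested.

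**Figure D3:**
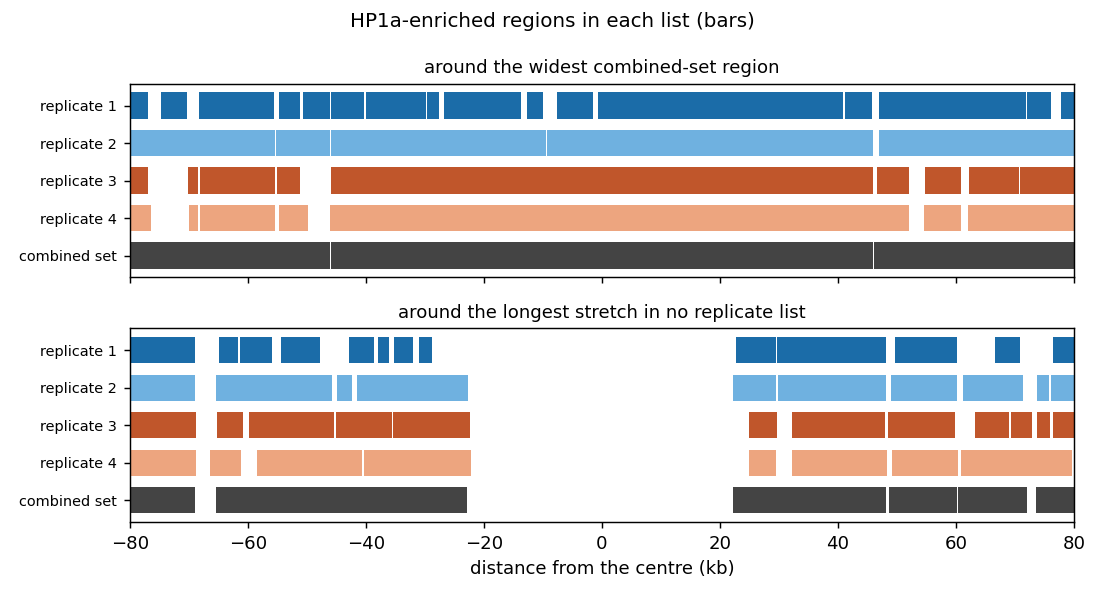
Called regions (bars) in each replicate list and in the combined set within 80 kb of the centre of the widest combined-set region (upper panel) and of the longest stretch in no replicate list (lower panel), against distance from the centre in kb. In the upper panel the domain of 92000 bp is nearly unbroken in replicates 2, 3 and 4 and is divided by short gaps in replicate 1. In the lower panel no replicate has a region in the central 44312 bp, and regions lie on both sides of it in every list, in replicate 1 further from its left edge.

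The combined set gave the same picture in fewer and wider pieces. Its 5 widest regions on 3LHet spanned 411 kb, 16.1% of the scaffold. The widest ran from 342691 to 434690 (92000 bp), and replicates 1 to 4 covered 93.3%, 99.6%, 99.9% and 100% of it. It was 8 separate regions in replicate 1, 2 in replicate 2 and 1 in each of replicates 3 and 4. The second, from 434809 to 518780 (83972 bp), began 118 bp further on and was covered over 90.9% ± 5.66 (SD, n = 4). Here replicate 1 again had 8 regions and replicate 2 had 1, while replicate 3 had 9 and replicate 4 had 6. Regions were counted by overlap, and the replicate 4 region from 342650 to 440674 (98025 bp) crosses the 118 bp gap and counts in both domains. By these counts the replicate with the most pieces was not the same in both domains. The other 3 ran from 726239 to 807660 (81422 bp, covered over 91.2% ± 5.65), from 821726 to 900366 (78641 bp, 93.7% ± 4.06) and from 1570059 to 1645124 (75066 bp, 92.0% ± 3.37). With gaps of up to 1 kb joined, 4 combined-set regions formed the longest block, 263 kb from 255793 to 518780. Replicates 1 to 4 covered 89.5%, 98.1%, 87.6% and 89.3% of it.

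The highest combined-set score on 3LHet, 2.15, belonged to a region of 6667 bp from 600438 to 607104, called as a single region in every replicate and covered over 99.4%, 98.9%, 88.0% and 100%. The second, with a score of 2.10, was 11177 bp from 25055 to 36231. It differed most between samples among the 10 highest: replicates 1 and 2 covered 89.5% and 88.5% of it, and replicates 3 and 4 covered 52.0% and 48.6%. Its part from 27230 to 31736 was called in both of the former and in neither of the latter. The third, with a score of 1.99, ran from 57915 to 67702 and was covered over 93.9% ± 5.81 (SD, n = 4).

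The other 7 of the 10 highest scores, from 1.71 to 1.87, belonged to wider regions, and 6 of them lay in 2 clusters. From 531255 to 654464 lay those from 531255 to 567129 (35875 bp), 570343 to 595128 (24786 bp) and 607385 to 654464 (47080 bp), with the highest-scoring region of all between them. From 1394366 to 1532484 lay those from 1394366 to 1433213 (38848 bp), 1434031 to 1457181 (23151 bp) and 1480361 to 1532484 (52124 bp). The last ran from 2399209 to 2410733 (11525 bp). Mean coverage of these 7 by the replicates was between 81.2% and 96.4%. The 23179 bp without a combined-set region from 1457182 to 1480360 separate 2 of these high-scoring regions, and none of the replicates covered more than 0.0216% of it. The top region of a replicate list was not always one of the 10: in replicate 3 it ran from 51790 to 57438 with a score of 2.45, and in replicate 4 from 111956 to 114196 with 2.44.

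The longest stretch without a combined-set region measured 44921 bp, at 2327753 to 2372673, followed by the 23179 bp already named. The next 3 measured 21422 bp at 203021 to 224442, 15408 bp at 1907546 to 1922953 and 12491 bp at 1677453 to 1689943. In replicates 1 and 2 at most 0.0216% of any of them was covered. Replicate 4 covered 22.1%, 12.3% and 11.2% of the last 3, where replicate 3 covered 1.07%, 0% and 1.54%.

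Of the 142 combined-set regions on 3LHet, 104 had an overlap of at least 1 bp in all 4 replicate lists (73.2%, 95% Wilson interval 65.4% to 79.8%, counting error only). The background over all combined-set regions of the series was 47.1%. With at least 50% of the region covered in each list, 91 remained (64.1%, 55.9% to 71.5%), against a background of 39.2%. Wide regions overlap other lists more easily, and on 3LHet all 65 combined-set regions of at least 10 kb were found in all 4 lists, against 1 of the 23 under 2 kb. By overlap of at least 1 bp the count was 95 of 154 on 3RHet (61.7%), 15 of 18 on 2LHet (83.3%) and 82 of 130 in the last 2 Mb of 3L (63.1%). With at least 50% covered it was 73 of 154 (47.4%), 12 of 18 (66.7%) and 73 of 130 (56.2%) in the same order. The share on 2LHet was thus above that on 3LHet by both rules. These shares are given side by side without a test.

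**Figure D4:**
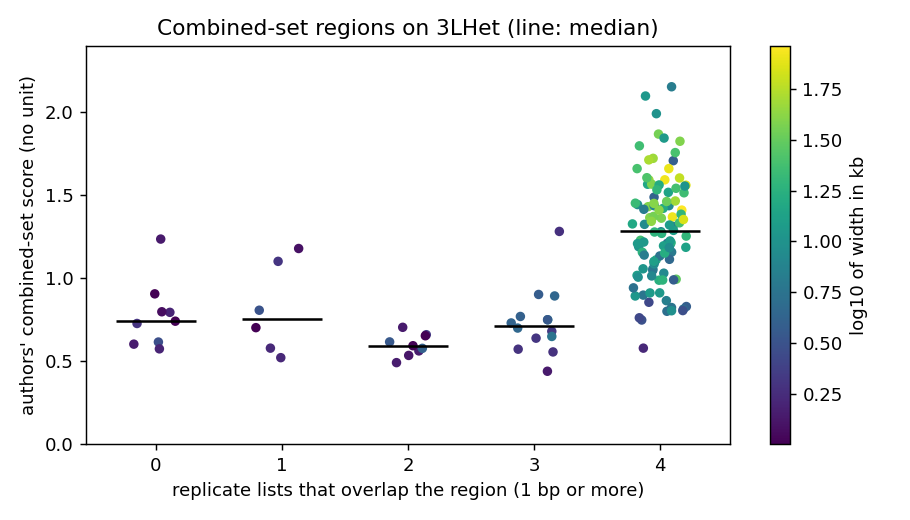
The authors' combined-set score (y axis, no unit) of the 142 combined-set regions on 3LHet by the number of replicate lists that overlap each by at least 1 bp (x axis), with points spread sideways for legibility, black lines for medians and colour for log10 of the width in kb. Regions in all 4 lists have a median score of 1.28 and include every region of at least 10 kb, while those in 0 to 3 lists have medians of 0.594 to 0.755. Width and score rise together among the 142 regions (Spearman's rho 0.76).

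The combined-set regions missing from some replicates were narrow and mostly of low score. These are not 2 separate findings. The overlap rule itself favours wide regions, and width and score rose together in the combined set on 3LHet (Spearman's rho 0.76 over 142 regions). The 104 found in all 4 lists had a median width of 12493 bp and a median score of 1.28, and together spanned 2124 kb. The 29 found in 1 to 3 lists had a median width of 2016 bp and a median score of 0.660. Found in none were 9, 6.34% of the regions against a background of 13.0%. A low share was not particular to 3LHet. It was 6.15% (8 of 130) in the last 2 Mb of 3L, 0% (0 of 18) on 2LHet and 11.7% (18 of 154) on 3RHet. The 9 regions on 3LHet were 1001 to 2963 bp wide and spanned 14.0 kb. They ran from 71081 to 73045, 126468 to 127830, 962507 to 963907, 966999 to 967999, 976500 to 977516, 1127363 to 1128934, 1246673 to 1247834, 1666765 to 1669727 and 2227941 to 2229524. Their scores lay between 0.575 and 1.24, and the highest belonged to the one from 126468 to 127830. Of these 9, 3 lay close together between 962507 and 977516.

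Among the replicate lists, replicate 2 lay closest to the combined set on 3LHet. Over the 104 regions found in all 4 lists, the nearest region start of a replicate list was a median of 584.5, 176, 403.5 and 811 bp away from the combined start in replicates 1 to 4. Of their starts and ends, 58.7% had an edge within 200 bp in replicate 2, against 21.2%, 30.3% and 24.0% in replicates 1, 3 and 4. The scores were ordered alike: Spearman's rho between the combined score and the highest overlapping score was 0.95 in replicate 2 and 0.81, 0.84 and 0.76 in replicates 1, 3 and 4. Between replicates it was 0.70 to 0.84 over the same 104 regions. A replicate region that overlaps neighbouring combined-set regions gives its score to each, so some of the 104 share a value. Those from 231701 to 246719 and from 247071 to 250855 both took 1.27 in replicate 4. The rho thus depends in part on how each list splits regions. The combined set belongs to the same 4 replicates and how it was made is not described, so these values are a description and not agreement between independent measurements. The replicate lists called 81.6 kb of 3LHet that the combined set left out, of which replicate 4 alone or with others held 74.4 kb and replicate 1 held 0.300 kb.

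3LHet was compared with the scaffolds 2LHet (368872 bp) and 3RHet (2517507 bp) and with the last 2 Mb of the assembled arm 3L, on its centromere side, the neighbouring sequence of the same arm. Its covered share was the highest in each replicate. Relative to 3RHet, covered over 66.6% ± 5.24, it was 1.13, 1.09, 1.14 and 1.13 times as high in replicates 1 to 4, or 1.12 ± 0.0229 times on average (SD, n = 4). Relative to 2LHet, covered over 62.8%, 70.7%, 57.4% and 57.2% in the same order, it was 1.09, 1.12, 1.29 and 1.34 times as high. The excess over 2LHet was thus larger in both samples of the second pair of experiment numbers, where 2LHet was less covered, than in both of the first. Relative to the end of 3L, covered over 61.5% ± 4.09, it was 1.23, 1.23, 1.21 and 1.19 times as high. Each difference pointed the same way in 4 of 4 replicates. The sign-flip permutation test, exact and two-sided, gave p = 0.125 for each, the smallest that 4 replicates allow (Benjamini-Hochberg adjusted p = 0.18 over 10 tests). With 4 replicates this test cannot reach 0.05.

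Long stretches that no replicate covered took unequal shares of these parts. Those of at least 10 kb made up 4.63% of 3LHet, 20.2% of 2LHet, 12.0% of 3RHet and 17.9% of the end of 3L. Leaving out bases that are uncovered by definition raises each share in proportion to what is removed, so the ratios to 3LHet must shrink, and the values that follow are arithmetic and no test. Without these stretches, an alternative chosen after seeing the data, the covered share was 78.3% ± 4.84 for 3LHet, 77.8% ± 7.95 for 2LHet, 75.7% ± 5.95 for 3RHet and 75.0% ± 4.98 for the end of 3L (SD, n = 4). On 2LHet only 2 stretches were left out, the longest of 57.1 kb. The removal lowered the 4 log2 ratios of 3LHet to 2LHet by the same amount (SD 0.143 before and after). The smaller ratios of replicates 1 and 2 (log2 0.129 and 0.169 with all bases) fell below 0, and those of replicates 3 and 4 (0.365 and 0.419) did not. The order of 3LHet and 2LHet then split by experiment number, which is no new pattern. 3LHet was the lower one in replicate 1 (72.0% against 78.7%) and replicate 2 (83.4% against 88.7%), and the higher one in replicate 3 (77.5% against 72.0%) and replicate 4 (80.3% against 71.8%). The mean log2 ratio of 0.01, against 0.27 with all bases, averages over these opposite directions. Against 3RHet the mean log2 ratio was 0.05 in place of 0.16 and against the end of 3L 0.06 in place of 0.28, above 0 in each replicate for both.

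**Figure D5:**
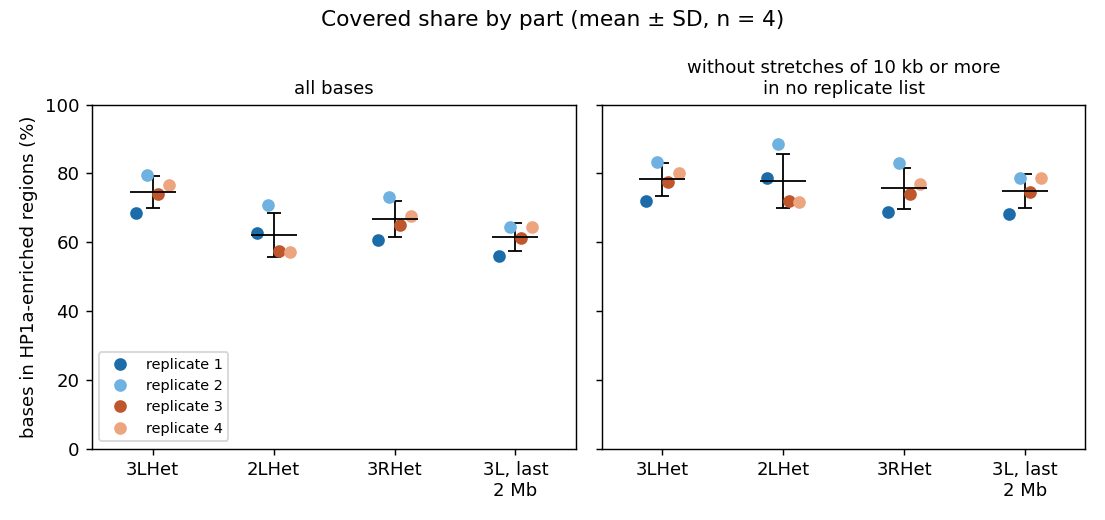
Percentage of bases in HP1a-enriched regions (y axis) on 3LHet, 2LHet, 3RHet and the last 2 Mb of 3L, with a point for each replicate and a bar for the mean ± SD (n = 4). With all bases (left) 3LHet is highest at 74.6%. Without stretches of at least 10 kb in no replicate list (right), which raises every share by construction, the 4 means lie between 75.0% and 78.3%, and on 2LHet replicates 1 and 2 lie above replicates 3 and 4.

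The comparison with 3L also depended on where the window began. The last 1 Mb of 3L, from 23543558 to 24543557, was covered over 68.9%, 81.2%, 77.0% and 82.0% in replicates 1 to 4. The 1 Mb before it was covered over 42.8%, 47.9%, 45.3% and 47.0%. Against the last 1 Mb alone the ratio of 3LHet was 0.996, 0.979, 0.959 and 0.934, below 1 in 4 of 4 replicates, so the direction turned (mean log2 ratio -0.05, exact sign-flip permutation p = 0.125). Against the 1 Mb before it the ratio was 1.63 ± 0.0235 (SD, n = 4).

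Region width and score separated 3LHet from these parts less clearly. The median width was 1.10 ± 0.0574 times that on 3RHet and 1.35 ± 0.309 times that on 2LHet (SD, n = 4; wider in 4 of 4 replicates for each; exact sign-flip permutation p = 0.125, adjusted p = 0.18). The ratio to 2LHet was 1.10 and 1.06 in the first pair of experiment numbers and 1.56 and 1.67 in the second, so its mean rests mostly on replicates 3 and 4. With regions of at least 2 kb only, the mean log2 width ratio to 2LHet turned to -0.02. With the 50% of each list that scored highest, that to 3RHet turned to -0.06. After joining across gaps of up to 1 kb, or with regions of at least 2 kb, 3LHet was wider than 3RHet in 2 of 4 replicates. The medians on 2LHet rest on 31 to 39 regions in each replicate list. In the combined set the median width was 8807 bp on 3LHet, 9337 bp on 2LHet and 6436 bp on 3RHet. Against the end of 3L the width ratio was 1.03, 1.16, 1.11 and 0.830 in replicates 1 to 4 (exact sign-flip permutation p = 0.88). Its direction depended on the processing. After joining across gaps of up to 1 kb its mean log2 was 0.241, with 3LHet wider in 4 of 4 replicates. It was -0.180 with the 50% of each list that scored highest and -0.0800 with regions of at least 2 kb. The median score on 3LHet exceeded that on 3RHet by 0.0485, 0.0444, 0.100 and 0.138 in replicates 1 to 4. It lay below that on 2LHet in 4 of 4 replicates, with the difference 3LHet minus 2LHet at -0.0542, -0.0405, -0.110 and -0.118. Both had an exact sign-flip permutation p = 0.125. The difference from the end of 3L was 0.0277, -0.0282, 0.126 and 0.0753, so replicate 2 differed in sign from the others, and the same exact permutation test gave p = 0.375. Among the 50% of each list that scored highest the mean difference from 2LHet had the opposite sign, at 0.00482.

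Agreement between replicates on 3LHet was at the upper end of the parts compared. The mean Jaccard index over the 6 replicate pairs was 0.806 (0.731 to 0.899), against 0.752 on 2LHet, 0.780 on 3RHet and 0.789 in the last 2 Mb of 3L. In each of these parts replicates 3 and 4 had the highest index and replicates 1 and 4 the lowest. Bases called in all 4 lists made up 59.0% of 3LHet, 50.2% of 3RHet, 47.3% of the end of 3L and 45.7% of 2LHet. A widely covered part gives a higher index by overlap alone, and the pairs share samples, so no test is given for this order.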

How the data were processed

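The deposited data are lists of enriched regions, 1 for each of the 4 ChIP samples and 1 for the replicate set. Coordinates are 1-based and of FlyBase release 5, per the file headers. Bowtie 0.12.7 is named in the submitters' processing notes. Neither the caller with its threshold nor the making of the combined set is described in the sources used here. The deposited score of each region has no stated unit. Regions past a sequence end were clipped, which touched 2 replicate regions and 1 combined-set region on 3LHet.

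Covered shares, widths and scores were computed per list with Python 3.11.15, NumPy 2.4.6, pandas 2.3.3 and SciPy 1.17.1, and plotted with Matplotlib 3.10.9. In other parts regions were placed by their midpoint. Ratios and score differences were formed within each replicate and went into a sign-flip permutation test, exact and two-sided, with p-values adjusted by Benjamini-Hochberg over 10 tests. The code was checked on simulated lists. The named regions are the 10 highest scores, the 5 widest regions, the 5 longest common blocks and uncovered stretches, the 3 densest, the 3 emptiest and the 3 most pair-dependent windows of 100 kb, and all combined-set regions in no replicate list. Regions named outside that rule (the top region of a replicate list, joined blocks, stretches called in 1 pair) were chosen after their values were seen. The scaffold and these rules were chosen with earlier results of these data known. Alternatives were the higher-scoring 50% of each list, joining across gaps of up to 1 kb, regions of at least 2 kb, a 1 Mb window on 3L, coverage of at least 50%, and leaving out each replicate.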

Additional observations from a re-analysis of the deposited data

Results flagged for a closer look

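Of 68 values examined for 1 replicate standing apart from the other 3 by Dixon's test, 11 did. The test's rate of about 1 in 20 (3.4) holds for normally distributed, independent values and is no yardstick here. Several of the 11 are shares near 0% or 100%, and where the other 3 are 0% any nonzero share stands apart. The values examined are also not independent, since windows, regions and stretches overlap. Replicate 1 was low in the window from 2400001 to 2500000, at 69.1% against 90.8% to 91.8%, and over the region from 342691 to 434690, at 93.3% against 99.6% to 100%. Replicate 2 was high in the windows from 300001 to 400000, at 96.8% against 84.7% to 86.3%, and from 800001 to 900000, at 93.4% against 89.6% to 90.0%. It was also high over the region from 1570059 to 1645124, at 97.0% against 89.9% to 90.7%. Its log2 ratio of the covered share of 3LHet to 3RHet was low, at 0.12 against 0.18 in the others, and it was the only replicate to reach into the combined-set gap from 1457182 to 1480360, by 0.0216%. Replicate 3 was low over the region from 600438 to 607104, at 88.0% against 98.9% to 100%. Replicate 4 was high in 3 combined-set gaps, at 22.1% from 203021 to 224442, 12.3% from 1907546 to 1922953 and 11.2% from 1677453 to 1689943, against at most 1.54% in the others.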

How the results depend on the processing

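Of 116 alternatives, 87 kept the sign of a tested mean or left a value within a limit. Of the others, 20 moved a value and 9 turned a direction, and the causes were not tested. The limit was the SD, a fixed fold for region counts, or a Wilson interval for shares called in all 4 lists. For bases that interval treats each base as independent, so nearly any change counts as moved. Kept signs include the ratio to 2LHet without long uncovered stretches, though its mean log2 fell from 0.27 to 0.01. The sign-flip test cannot pass 0.05 with 4 or fewer replicates, so its p says nothing about stability. With only the 50% of each list that scored highest the covered share of 3LHet was 64.1%, the mean number of regions 135.5, the median width 8505 bp, the share called in all 4 lists 44.1% and the mean Jaccard index 0.732, and the directions of the score difference from 2LHet (0.00482) and of the log2 width ratios to 3RHet (-0.0619) and to the end of 3L (-0.180) turned. Joining across gaps of up to 1 kb gave 129 regions, a median width of 9463 bp, 61.1% in all 4 lists and 87.3% of combined-set regions found in all 4. The log2 width ratio to the end of 3L was then 0.241, above 0 in 4 of 4 replicates. Regions of at least 2 kb gave a median width of 6720 bp, 56.5% and 80.7%, and log2 width ratios of -0.0244 to 2LHet and -0.0800 to the end of 3L. With a 1 Mb window on 3L the log2 ratios to it turned to -0.0488 for the covered share and -0.329 for the width. At least 50% coverage gave 64.1% of combined-set regions. Leaving out each replicate gave 59.8% to 66.8% of bases in all remaining lists, 73.2% to 81.7% of combined-set regions, and log2 width ratios to the end of 3L of -0.0229 to 0.136. The highest of the first 2 ranges came without replicate 1, and the width ratio turned without replicate 2 (-0.0229) and without replicate 3 (-0.00496). Alternatives added after seeing the data gave 67.2% of bases called in both replicates 1 and 2 and 71.2% in both replicates 3 and 4. When replicates are left out, the share of bases or combined-set regions found in all remaining lists can only stay or rise. Those shares are therefore no test of stability. No paired analysis was possible because no region list of an input was used here, so ChIP and input of one number could not be set against each other; the ratios between parts were formed within each ChIP sample. Read depth is unknown, so how far it limits the calls cannot be stated.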
